A study of Homo sapiens with 6 samples.

Results

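Ribosomal protein pseudogenes are genomic copies of the genes for the proteins of the ribosome. Of 627 genes whose symbol is that of a cytosolic ribosomal protein followed by P and a number, 82 reached a mean FPKM of 1 and are described here. FPKM is the number of fragments for a given length of transcript and a given number of mapped fragments. Of the other matching genes, 414 were listed at 0 in both columns of the table. The 82 pseudogenes were selected on their mean level, so that they are expressed at this level is not a finding. They carry the names of 43 parent genes, of which 21 gave 1 pseudogene each and RPS2 gave 5. The threshold fell among genes with few counts. RPS12P20 (0.846 FPKM in the KD-labelled column and 1.30 in the CTRL-labelled column), RPL13AP20 (1.33 and 0.766) and RPL7P22 (1.17 and 0.883) were just inside it. RPL23AP64 (0.327 and 1.66), RPS12P31 (1.16 and 0.786) and RPL18P10 (1.14 and 0.694) were just outside it.

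The study compared K562 cells, a line from a human leukemia, after transfection with siRNAs that target both αCP1 and αCP2, with K562 cells that received control siRNAs. αCP1 and αCP2 are RNA-binding proteins with a preference for C-rich sequences, encoded by PCBP1 and PCBP2. RNA was taken 72 h after transfection from 3 cell pools per group, and the libraries were sequenced as pairs of 100 nt reads. The table holds only 1 FPKM and 1 estimated count per gene in each group, with column totals of 13699340 counts (KD) and 11680567 counts (CTRL), so that no spread between the 3 libraries of a group can be given and no test was run.

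The paper reports that depletion of αCP1 and αCP2 was seen at the mRNA and protein levels, the latter by Western blot. In the RNA values used here, PCBP1 and PCBP2 did not bear out the column labels. PCBP1 was at 184 FPKM in the KD-labelled column and 188 in the CTRL-labelled column, and PCBP2 was at 531 and 342. The columns are therefore named as labelled throughout, and every direction below is a direction between these columns. Of 14 erythroid marker genes, 7 were under 1 FPKM in both columns, among them GATA1, KLF1 and TAL1 at 0, while HBE1 was at 153 and 35.4. Of 6 epithelial markers, KRT8 (1505 and 819 FPKM), KRT18 (2309 and 1748) and KRT7 (540 and 604) were abundant. EPCAM was at 3.94 and 3.26, CDH1 at 0.363 and 0.426 and KRT19 at 0 in both columns. Both lists were thus mixed, and they do not settle whether the labelled cell type holds. What this does to the pseudogenes was not tested.

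Most pseudogenes of this kind are processed retrocopies: an mRNA was reverse transcribed and inserted elsewhere in the genome, without the introns and the promoter of its parent. Ribosomal protein mRNAs are short and abundant in every growing cell, and they have left more such copies in mammalian genomes than other gene families. A read that lies in a stretch shared by copy and parent fits both places equally well, so that the level given to a young copy depends on where the aligner puts such reads. In the annotation used here, GENCODE release 44 on GRCh37, 69 of the 82 were processed pseudogenes, 11 were transcribed processed pseudogenes, 1 (RPL32P3) was a transcribed unprocessed pseudogene and 1 (RPSAP58) is now a protein-coding gene. A single exon made up 79 of them, 77 lay on another chromosome than the parent, and their annotated length was 81 to 2140 nt, with a median of 493 nt.

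How much of a copy can be told from its parent is shown by the sequences. The pairs below are the 100 nt stretches, which is the length of a read, with the most differences inside the coding sequence of the parent, and capitals mark the bases that differ. RPL21P75 took nearly all counts of its pair, and it differs from its parent at 1 base in its whole length. Outside that base, no single read of 100 nt can tell RPL21P75 from RPL21. RPL13AP5 had the highest log2 ratio among the most abundant pseudogenes and differs from RPL13A at 3 bases. RPL35P1 had the highest log2 ratio of all, and its stretch carries 8 differences. The RPL21P75 stretch is chr7:20042734-20042833 (plus strand), that of RPL13AP5 is chr10:98510233-98510332 (plus strand) and that of RPL35P1 is chr1:237144889-237144988 (plus strand), all on GRCh37, with the parents read from their spliced GENCODE transcripts. RPL21P75 lies across an exon of an unnamed long non-coding RNA gene on the other strand, and RPL13AP5 and RPL35P1 lie in no other annotated gene.
RPL21P75: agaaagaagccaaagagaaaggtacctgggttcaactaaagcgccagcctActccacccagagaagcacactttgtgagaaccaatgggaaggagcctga
RPL21: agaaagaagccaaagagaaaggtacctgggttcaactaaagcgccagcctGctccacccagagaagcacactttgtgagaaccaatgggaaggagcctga
RPL13AP5: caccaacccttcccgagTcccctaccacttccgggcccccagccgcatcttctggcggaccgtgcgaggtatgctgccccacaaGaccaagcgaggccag
RPL13A: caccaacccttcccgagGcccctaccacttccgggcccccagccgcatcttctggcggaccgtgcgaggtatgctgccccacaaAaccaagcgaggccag
RPL35P1: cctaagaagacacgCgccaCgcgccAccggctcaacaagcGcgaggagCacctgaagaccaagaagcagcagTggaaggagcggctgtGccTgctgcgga
RPL35: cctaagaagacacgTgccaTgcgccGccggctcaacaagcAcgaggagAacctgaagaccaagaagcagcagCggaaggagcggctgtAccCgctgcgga

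The 82 pseudogenes differed in level over more than 3 orders of magnitude. Mean FPKM ran from 1.03 to 3670 with a median of 6.26, 27 pseudogenes were at 100 FPKM or more, and 45 were under 10. Among the most abundant, RPL3P4, a 423 nt part copy of RPL3, whose protein lies next to the peptidyl transferase centre, was at 3496 FPKM in the KD-labelled column and 2299 in the CTRL-labelled column. RPL13AP5 (copy of RPL13A) was at 3308 and 899, and RPL21P75 (copy of RPL21) at 1761 and 1830. RPS23P8, a copy of the gene for the decoding centre protein RPS23, was at 1442 and 1929. Others of high level were RPL6P27 (1846 and 1087), RPS2P46 (1840 and 859), RPL41P1 (1427 and 814), RPS3AP6 (1120 and 908) and RPSAP58 (976 and 974). The 10 most abundant pseudogenes held 0.853% of all counts in the KD-labelled column and 0.560% in the CTRL-labelled column, out of 1.23% and 0.799% for all 82.

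**Figure D1:**
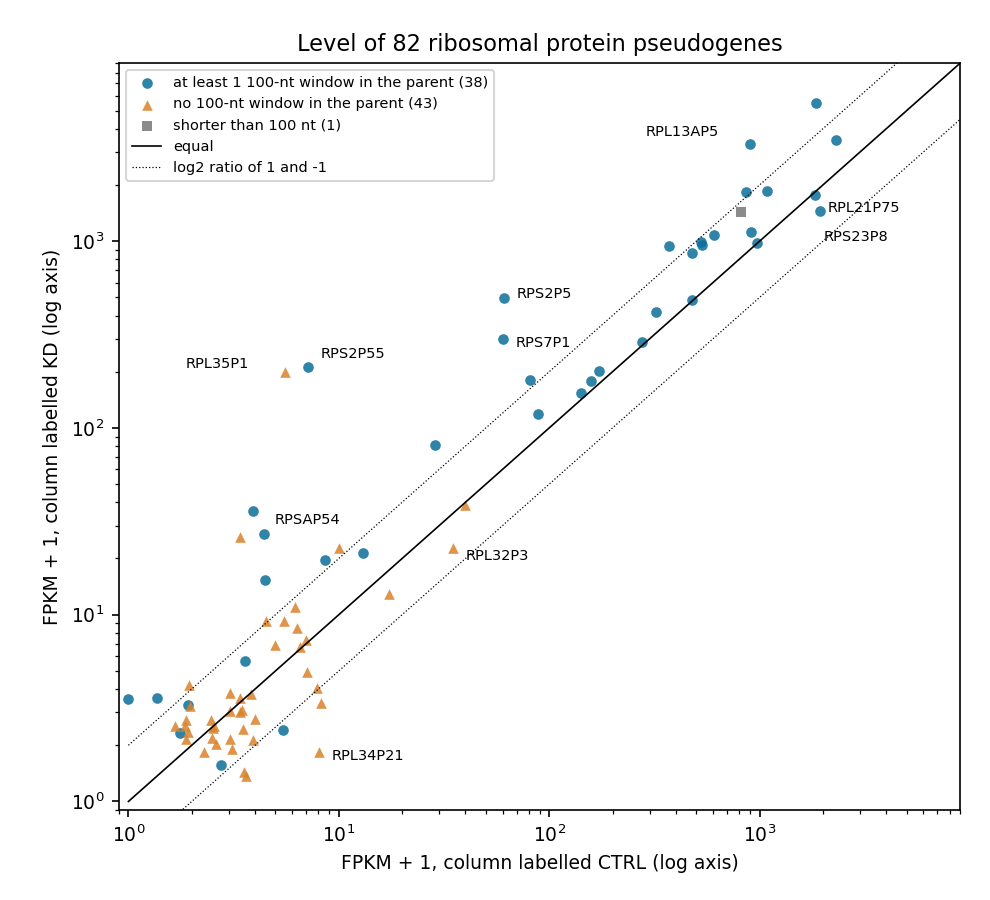
FPKM plus 1 of each of the 82 pseudogenes in the CTRL-labelled column (x axis, log scale) against that in the KD-labelled column (y axis, log scale). Circles are the 38 pseudogenes with at least 1 stretch of 100 nt found without a mismatch in a transcript of the parent, triangles the 43 with none and the square the 1 that is shorter. The solid line marks equal values and the dotted lines log2 ratios of 1 and -1. The circles fill the upper part of the plot, and RPS2P55, RPL35P1, RPS2P5 and RPS7P1 stand well above the lines.

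Among these 82 pseudogenes, abundance went with likeness to the parent. They were chosen by that same abundance, and the matching genes below the threshold were not compared for likeness. Of the 81 pseudogenes long enough, 38 held at least 1 window of 100 nt that a transcript of the parent also holds without a mismatch, and among these the share of such windows had a median of 27.5%. Their mean FPKM had a median of 182, against 2.27 for the 43 without such a window. Of the 27 pseudogenes at 100 FPKM or more, 25 had a shared window. The exceptions were RPL41P1, whose 81 annotated nt are identical to RPL41 and hold no window of that length, and RPL35P1. The authors listed RPL41P1 at a longer locus, chr20:21735866-21736171, so that its counts may rest on more than these 81 nt. All 27 were at least 95.7% identical to the parent. Of the 45 under 10 FPKM, 8 had a shared window. Across pseudogenes, which share reads with each other and are not independent, Spearman's rho of the mean FPKM was 0.68 with the share of windows (n = 81) and 0.68 with identity (n = 82). Against the mean FPKM of the parent it was 0.01 (n = 82). The aligner was run with up to 3 mismatches allowed per read. At that tolerance 53 pseudogenes had a shared window and 14 had no window that lacked a match in the parent. The 38 pseudogenes with a shared window include RPL21P75, some part of which is held by 19 other genes, and RPSAP58 with 14. Both counts include the parent. Reads can thus be shared with other genes as well as with the parent.

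**Figure D2:**
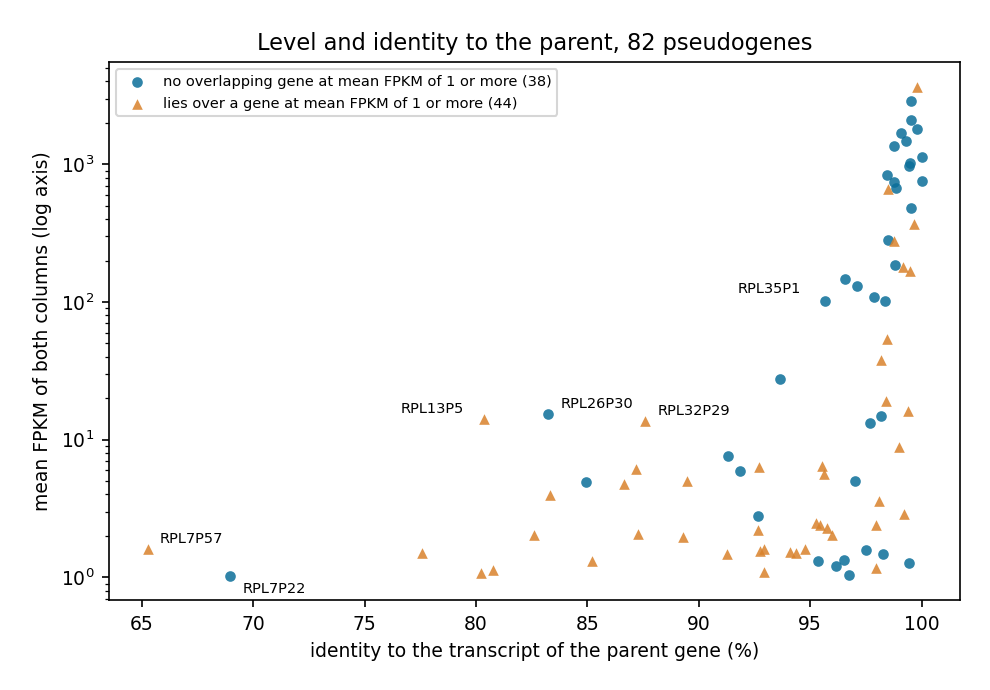
Identity of each pseudogene to the transcript of its parent in percent (x axis) and mean FPKM of both columns (y axis, log scale). Triangles are the 44 pseudogenes that lie over another annotated gene with a mean FPKM of at least 1, circles the other 38. All pseudogenes at 100 FPKM or more lie at 95.7% identity or above, and RPL7P57 and RPL7P22 lie far to the left.

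Of the copies, 6 were listed above their parent in both columns, among them RPL3P4, RPL13AP5, RPL21P75, RPS3AP6 and RPL9P7. RPL21 was at 31.7 and 27.9 FPKM, and RPL21P75 held 97.8% of the pair in the KD-labelled column and no less in the CTRL-labelled column. RPL9, a large subunit protein gene, was at 87.6 and 63.1 FPKM, and RPL9P7, which differs from it at 2 bases and lies in an intron of APOO, held 79.2% and 79.7%. RPS3AP6, a copy of the small subunit gene RPS3A with 4 differences, held 61.2% and 59.3%. These parent genes were listed far below the median of the 43 parents, which was 2957 FPKM in the KD-labelled column and 1675 in the CTRL-labelled column. The levels of such a pair cannot be told apart here from the division of shared reads by the authors' software. At the other end, 40 pseudogenes were under 1% of the parent's FPKM in both columns. The copies of at least 99% open reading frame length, counted from an ATG to the first stop or the end of the annotated copy and relative to the parent's coding sequence, numbered 29 of 82 and 16 of the 27 at 100 FPKM or more.

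**Figure D3:**
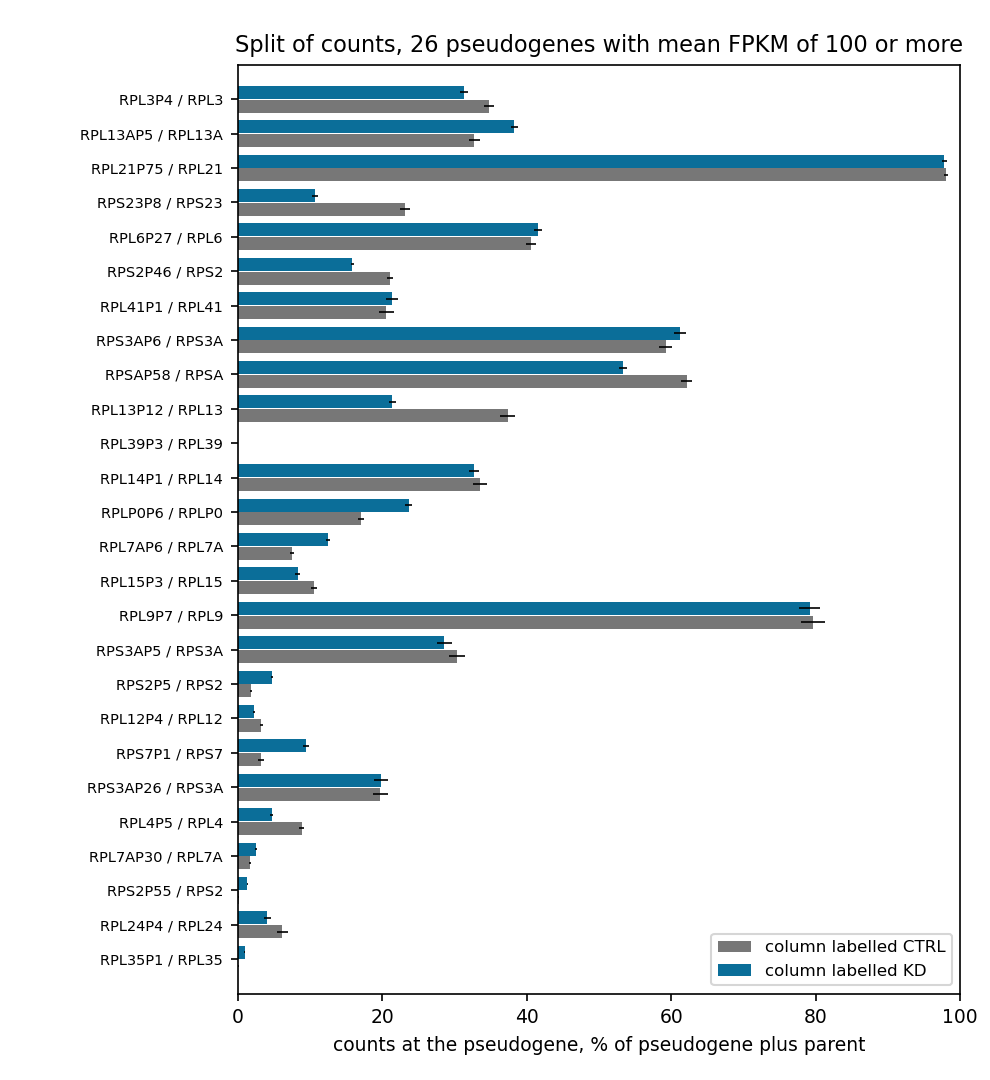
Counts listed at the pseudogene as a percentage of the counts of pseudogene and parent together (x axis) for 26 of the 27 pseudogenes with a mean FPKM of 100 or more, in order of level with the highest at the top. Bars are the KD-labelled and CTRL-labelled columns, and error bars are exact binomial 95% intervals, which cover counting error only. RPL21P75, RPL9P7, RPS3AP6 and RPSAP58 hold over 50% of their pair in both columns, and RPS23P8 and RPL13P12 hold less in the KD-labelled column.

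RPL39P3 was an exception to the link between FPKM and counts. This 156 nt copy is identical to RPL39, whose protein lines the exit tunnel of the ribosome, and it was listed at 988 and 528 FPKM. These values rest on 2 counts and 1 count. It had 0.002 counts per unit of FPKM, against 0.736 to 37.1 for the other 81 pseudogenes, and no fold is given for it. In the whole table, 4 of 1286 genes at a mean of 100 FPKM or more had 10 counts or fewer in both columns together.

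Between the columns, the log2 ratio of FPKM plus 1 (KD over CTRL) was 1 or more at 20 of 82 pseudogenes and -1 or less at 5. Among all 13741 genes at a mean FPKM of at least 1, 8.51% were higher by this margin and 3.27% were lower. The median was 0.36 over the pseudogenes and 0.01 over all genes. A pseudocount was also added to counts divided by the column total. On that scale the median of all genes moved to -0.18 and that of the pseudogenes to 0.17. There, 12 pseudogenes were higher by 1 or more and none lower, against 4.66% and 5.84% of all genes. The pseudocount weighs on low counts: RPL34P21 was at -0.65 with it and -3.23 without, and RPL31P52 at 0.37 and 1.58. That none was lower holds only with the pseudocount, and without it more pseudogenes passed 1 in both directions. RPS26P47, counted among the 20, had 5 counts in the KD-labelled column and is listed at 0 in the CTRL-labelled column. By 2 or more, 7 of 82 pseudogenes were higher, against 1.03% of all genes. The log2 ratios differed between pseudogenes with more and with fewer counts, by a limit set after the data were seen. A gene can pass that limit through 1 column alone, as RPL35P1 did with 442 and 10 counts. The split is therefore a description only. Of 43 with 30 or more counts in both columns together, 16 were higher by 1 or more and none was lower, where the background was 8.02% and 2.47%, and their median was 0.76. Of the 39 with fewer counts, 4 were higher and 5 lower, with a median of -0.02. The small subunit copies (31) had a median of 0.32 and the large subunit copies (51) one of 0.39.

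Of the 6 largest positive log2 ratios with 30 or more counts, 4 belonged to copies with 35 or fewer counts in the CTRL-labelled column, and RPS2P5 and RPS7P1 had more. RPL35P1, a copy of the gene for RPL35 at the exit of the ribosomal tunnel, had 442 counts in the KD-labelled column and 10 in the CTRL-labelled column, or 198 and 4.57 FPKM. Its log2 ratio was 5.16, with a 95% exact binomial interval of 4.34 to 6.31 for the ratio of count shares, which covers counting error only. RPS2P55 had 1163 and 35 counts and 212 and 6.16 FPKM, with a log2 ratio of 4.90 and an interval of 4.34 to 5.35. RPS2P5 was at 493 and 60.2 FPKM (4285 and 521 counts), with a log2 ratio of 3.01 and an interval of 2.68 to 2.94. RPL32P29 had 66.5 and 6.27 counts, with a log2 ratio of 2.94 and an interval of 2.05 to 4.75. It overlaps an exon of RPS29, a small subunit protein gene, on the same strand, and RPS29 was at 8409 and 5482 FPKM and the position of a read there does not tell these genes apart. RPSAP54 was at 26.1 and 3.43 FPKM, with a log2 ratio of 2.61 and an interval of 2.15 to 3.30. RPS7P1 was at 298 and 59.1 FPKM, with a log2 ratio of 2.32 and an interval of 1.84 to 2.198. The intervals are on the scale of count shares without a pseudocount, and they need not hold the log2 ratio of FPKM. On counts divided by the column total, with a pseudocount, the median of all genes was lower than on FPKM.

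Each of these 6 had a log2 ratio above that of its parent. They were chosen for the largest log2 ratios, so that this is not a separate finding. RPL35 had a log2 ratio of 1.61 (13410 and 4389 FPKM), RPS2 of 1.31 (10980 and 4431), RPL32 of 0.69 (3292 and 2036), RPSA of 0.00 (1081 and 1079) and RPS7 of 0.62 (1931 and 1257). RPL35P1 shares no window of 100 nt with RPL35 and differs from it at 16 bases, so that each 100 nt of it differs from RPL35 at 1 base or more. With 3 mismatches allowed, 35.1% of its windows matched RPL35. RPS2P55 differs from RPS2 at 19 bases and shares 18.9% of its windows with it. RPS27P29, a copy of RPS27 with 28 counts in both columns together, was outside these 6 for its low counts and had 26 and 2 counts. It was named after its value was seen, as the remaining pseudogene with a log2 ratio of 2 or more (3.21).

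**Figure D4:**
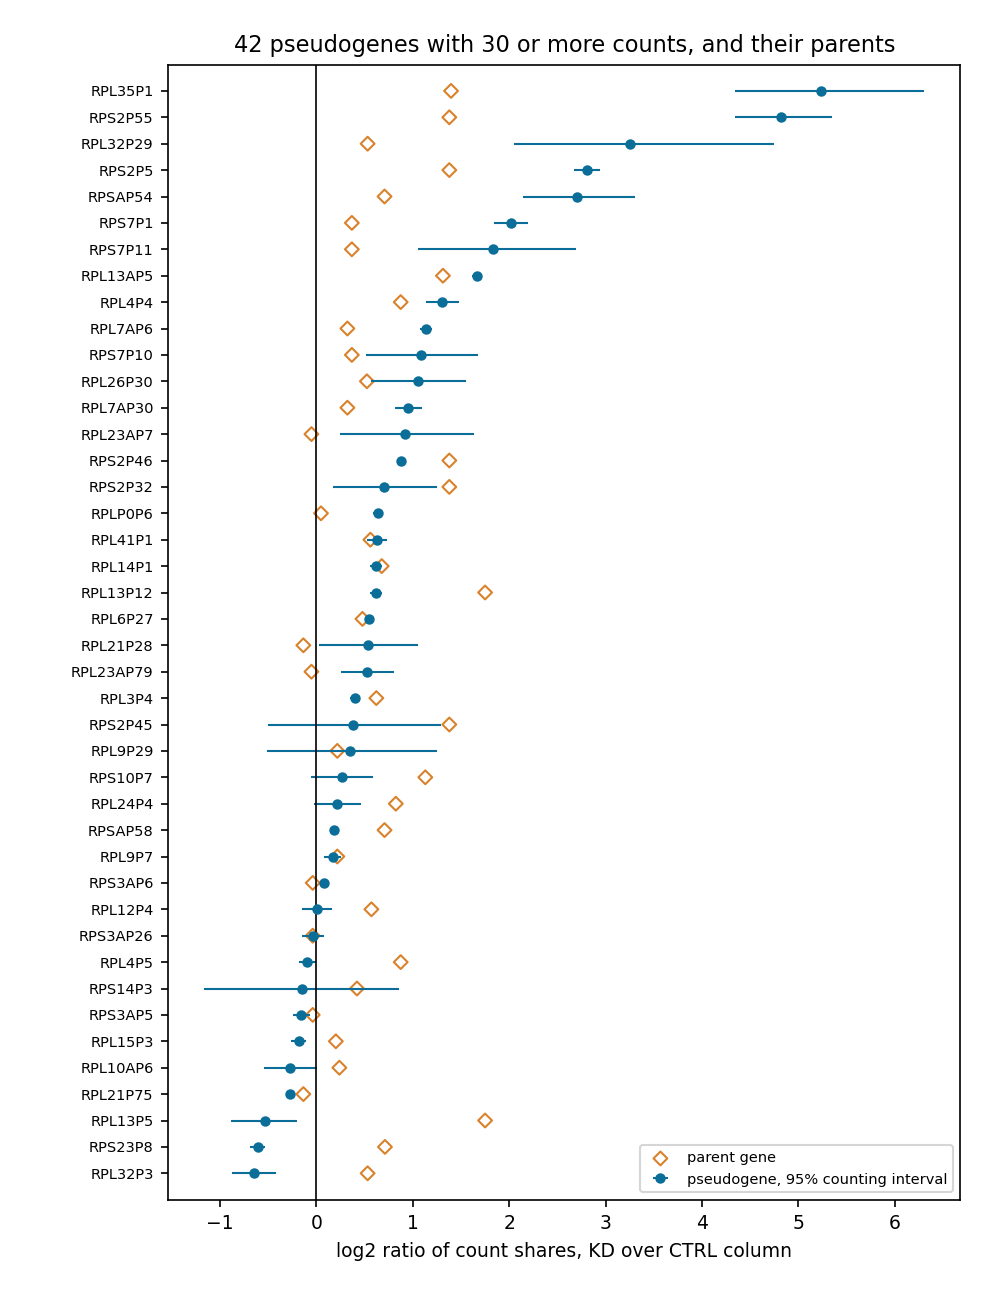
Log2 ratio of the shares of counts, KD over CTRL column (x axis), for 42 of the 43 pseudogenes with 30 or more counts (filled circles, with exact binomial 95% intervals that cover counting error only) and for the parent of each (open diamonds). Most circles lie to the right of 0. RPL35P1, RPS2P55, RPL32P29, RPS2P5, RPSAP54 and RPS7P1 lie far to the right of their parents. RPL13P5, RPS23P8 and RPL32P3 lie to the left of 0 while their parents lie to the right. RPL10AP6, RPL15P3, RPL4P5 and RPS14P3 do the same, nearer to 0.

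Low log2 ratios were fewer and smaller. RPL32P3, the unprocessed copy, with 2 exons in its main transcript, was at 21.8 FPKM in the KD-labelled column and 33.8 in the CTRL-labelled column, a log2 ratio of -0.61 with an interval of -0.87 to -0.42. RPL13P5 was at 11.96 and 16.4 (-0.43; -0.88 to -0.20), and RPS23P8 at 1442 and 1929 (-0.42; -0.68 to -0.53). For all 3 the parent went the other way: RPL32 at 0.69, RPL13 at 2.28 (3605 and 739 FPKM) and RPS23 at 0.99 (5321 and 2678). RPS23P8 thereby held 10.8% of the counts of its pair in the KD-labelled column and 23.2% in the CTRL-labelled column. RPL32P3 overlaps an exon of an unnamed long non-coding RNA gene on the same strand. RPL13P5 lies over 3 other genes outside their exons, among them SPSB2 at 15.3 and 5.90 FPKM. The values of RPL32P3 and RPL13P5 may thus not be those of the copies alone, which was not tested. RPL21P75 (-0.05), RPL10AP6 (37.5 and 38.8 FPKM, -0.05) and RPSAP58 (0.00) completed the lowest 6, and these 3 were level on the FPKM scale. RPL10AP6 is a copy of RPL10A, the protein of the mobile L1 stalk, without a 100 nt window in common with it. The 5 pseudogenes with a log2 ratio of -1 or less had at most 20 counts in both columns together. RPL34P21 had 1 and 8 counts, RPL21P123 1 and 7, RPS15AP16 5 and 15, RPL23AP1 1.54 and 8.77, and RPL41P2 2 and 6.

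Pseudogene and parent did not move as one. Among the 43 pseudogenes with 30 or more counts, the log2 ratio was above that of the parent at 21 and below it at 22, and it was within 0.5 of it at 18. It exceeded the parent's by 1 or more at 8 (RPL35P1, RPS2P55, RPS2P5, RPSAP54, RPL32P29, RPS7P1, RPS7P11 and RPL23AP7) and was short of it by 1 or more at 6 (RPL13P5, RPL13P12, RPS23P8, RPL32P3, RPL4P5 and RPS2P45). The share of the pair's counts was higher in the KD-labelled column, with intervals that do not overlap, at 15 of the 43, lower at 14 and overlapping at 14. These intervals cover counting error only, and neither the spread between libraries nor the division of shared reads. Spearman's rho between the log2 ratio of pseudogene and parent was 0.23 over these 43, which share parents and reads.

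The RPS2 family had the most members. RPS2, a protein near the entry site of mRNA on the small subunit, was itself higher in the KD-labelled column. Of its 5 copies, RPS2P46 was at 1840 and 859 FPKM with a log2 ratio of 1.10, below that of RPS2, and RPS2P5 (3.01) and RPS2P55 (4.90) were above it. RPS2P32, 91.3% identical to RPS2, was at 9.93 and 5.22 FPKM (0.81). RPS2P45, 80.8% identical, had 29 and 19 counts (0.30), an interval of -0.50 to 1.30 that includes equal shares. Together the copies held 20.3% of the family's counts in the KD-labelled column and 22.5% in the CTRL-labelled column, so that the family as a whole, with a log2 ratio of count shares of 1.34, had nearly that of RPS2 alone (1.38).

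The RPSA, RPL9 and RPL23A families had 4 members each. RPSA, a small subunit protein also known as a laminin receptor precursor, and RPSAP58 were both level in FPKM, at 1081 and 1079 and at 976 and 974. Their counts were not level: RPSA had 12868 and 6715, and RPSAP58 14714 and 11011, so that the log2 ratio of RPSA was 0.71 on count shares and 0.00 on FPKM. RPSAP54 (2.61) stood apart, RPSAP9 had 20 and 8 counts and RPSAP51 10 and 5. In the RPL9 family, RPL9P7 was at 419 and 320 FPKM with a log2 ratio of 0.39, near that of RPL9 (0.47). RPL9P29 (30 and 20 counts), RPL9P32 (11 and 11) and RPL9P2 (7 and 3) were low. RPL23A, a tunnel exit protein to which the signal recognition particle binds, was level at 714 and 696 FPKM. Its copies RPL23AP79 (8.27 and 4.50 FPKM, 0.75) and RPL23AP7 (8.30 and 3.50, 1.05) were higher in the KD-labelled column, with intervals of 0.26 to 0.81 and 0.24 to 1.63. The gene listed as RPL23AP79 is now named CENPBD2P and overlaps 6 other genes, 2 of them in exons. Among these is MZF1, at 14.2 and 6.63 FPKM. Its values may thus not be those of the RPL23A copy alone, which was not tested. RPL23AP2 had 16 and 8.78 counts and RPL23AP1 1.54 and 8.77. Neither RPL23AP79 nor RPL23AP7 shares a 100 nt window with RPL23A, but each shares windows with 13 other genes.

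Copies of 1 parent were alike in direction in some families and not in others. The 3 copies of RPS7 had log2 ratios above that of RPS7, namely RPS7P1, RPS7P11 (14.3 and 3.45 FPKM, 1.78) and RPS7P10 (18.7 and 7.58 FPKM, 1.20), and they held 10.4% of the family's counts against 3.75%. RPL7AP6 (944 and 369 FPKM, 1.35) and RPL7AP30 (180 and 79.9, 1.16) were above RPL7A (0.55), while RPL7AP60 had 7 and 16 counts. Of the RPS3A copies, RPS3AP6 (0.30), RPS3AP5 (0.07) and RPS3AP26 (0.19) were all near the 0.24 of RPS3A. The copies of RPL4, a protein that narrows the exit tunnel, parted: RPL4P4 was at 79.8 and 27.6 FPKM (1.5) and RPL4P5 at 154 and 141 (0.13), beside 1.403 for RPL4. RPLP0P6, a copy of the gene at the base of the ribosomal stalk, was at 864 and 475 FPKM (0.86), above the 0.27 of RPLP0.

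A second kind of member was a diverged copy inside another gene. Of the 43 pseudogenes without a shared 100 nt window, 31 lay over another annotated gene with a mean FPKM of at least 1, and 27 of these were below the level of that gene. Of the 38 with a shared window, 13 lay over such a gene and 4 were below it. Among the 44 pseudogenes of both kinds over an expressed gene, the host was protein coding at 43. RPL34P21 (0.845 and 7.05 FPKM) lies in APLP2 (270 and 239), RPS14P3 (5.73 and 5.51) in MICOS10 (276 and 266) and RPLP1P11 (1.74 and 1.46) in NCOR1 (78.3 and 69.6). The kit used for the libraries does not mark the strand, so that intronic reads of the host on either strand and reads of the copy cannot be told apart. The pseudogenes without a shared window had a median log2 ratio of -0.02, with 5 of 43 higher by 1 or more and 4 lower, which is near the 8.51% and 3.27% of all genes for the higher ones and above it for the lower ones. Those with a shared window had a median of 0.80, with 15 of 38 higher and 1 lower. The 2 kinds lay closer together with 30 or more counts, where 4 of 13 without a window (median 0.47) and 12 of 29 with one (median 0.83) were higher and none was lower, against 8.02% and 2.47% of all genes. The 26 pseudogenes in no other annotated gene had a median of 0.68, and 7 of them were higher by 1 or more, against 8.51% of all genes.

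For 3 pseudogenes the symbol named another gene than the closest one. When each copy was aligned to 87 ribosomal protein genes and their relatives, the parent by symbol scored best for 79. RPL7P57 and RPL7P22 were 95.8% and 97.3% identical to RPL7L1, a relative of RPL7, over 99.9% and 100% of their length, whereas 190 nt of each aligned to RPL7. RPL26P30 was 99.1% identical to RPL26L1, the paralog of RPL26, and 83.2% identical to RPL26. It was at 21.7 and 8.98 FPKM (1.18), beside 0.91 for RPL26L1 (82.8 and 43.7 FPKM) and 0.73 for RPL26. RPL7P57 had 8 and 14 counts and RPL7P22 8 and 6, too few to set beside the 0.07 of RPL7L1. The stretch of RPL7P57 with the most differences from RPL7L1, chrX:47700635-47700734 on GRCh37 (minus strand), shows the likeness, with the differing bases in capitals.
RPL7P57: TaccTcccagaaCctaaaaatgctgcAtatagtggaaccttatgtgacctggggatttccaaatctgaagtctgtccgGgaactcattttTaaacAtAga
RPL7L1: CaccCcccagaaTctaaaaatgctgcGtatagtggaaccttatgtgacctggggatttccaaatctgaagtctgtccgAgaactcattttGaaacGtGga

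The parents and the other ribosomal protein genes were higher in the same column. Of 81 such genes at a mean FPKM of at least 1, 24 were higher by 1 or more on the log2 scale and none lower by as much, against 8.51% and 3.27% of all genes, with a median of 0.69, and for the 43 parents the median was 0.77. Of 58 pseudogenes of other abundant genes, 5 were higher by 1 or more, a share near the 8.51% of all genes, and 8 were lower, with a median of -0.10. The 14 of them at 100 FPKM or more had a median of 0.32, with 10 above 0 and none past 1 in either direction. Base composition moved with the log2 ratio. In the 43 pseudogenes with 30 or more counts, the median was 0.39 in the 15 of lowest GC content (42.3% to 47.9%), 0.78 in the middle 14 and 0.98 in the 14 of highest GC content (53.3% to 61.3%). With a trend in GC content and length over 13300 genes removed, 17 of 82 pseudogenes were higher by 1 or more and 6 lower, against 4.82% and 3.62% of the genes so treated, and the median was 0.25.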

How the data were processed

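The authors made RNA-seq libraries with the TruSeq RNA kit, mapped the reads with TopHat 1.4.1 to hg19 and Ensembl transcripts with up to 3 mismatches per read, and calculated FPKM with Cuffdiff 2.2.0. The table deposited by the authors holds FPKM values and estimated counts, 1 of each per gene and group. How the values of the 3 libraries were joined, and how reads that match several places were shared out, is not given in the sources used here. Columns of the authors' own fold change, p-value and FDR, and of average, highest and lowest FPKM, were not used.

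Genes were chosen by symbol and by a mean FPKM of at least 1. The members, lists and settings were chosen with earlier results of these data known. Ratios of FPKM were taken on the log2 scale after a pseudocount of 1 was added to each value. Counts divided by the column total also had a pseudocount added before the log2 ratio, and ratios of count shares had none. No test was possible with 1 value per group, and the planned descriptions by counts and medians were used. Clopper-Pearson intervals of the rounded counts at 95% cover counting error only, and pseudogenes with 3 counts or fewer in each column get no fold. The table gives no depth per library, so the column totals were used. The mapped read pairs per library that the study's supplement lists were not used here. Both column totals are smaller than the mapped pairs listed for any single library, and the reason was not tested.

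Genes were matched to GENCODE release 44 on GRCh37, 80 by identifier, 1 by symbol and 1 by a RefSeq synonym. Windows of 100 nt of a pseudogene were searched in the transcripts of its parent, and local alignments were scored with 2 for a match, -3 for a mismatch, -7 to open and -2 to extend a gap. The named pseudogenes were the 10 of highest level, the 6 highest and 6 lowest log2 ratios with 30 or more counts, the 3 with the most and the fewest shared windows, the largest families with ties (RPS2, RPSA, RPL9 and RPL23A) and the 3 on each side of the threshold. Others were named after their values were seen, and 1 pseudogene of the first group is counted but not reported by name here. The functions were tested on simulated data. Biopython 1.88 did the alignments, scipy 1.17.1 the intervals, pandas 2.3.3 and numpy 2.4.6 the tables and matplotlib 3.10.9 the figures, in Python 3.11.15.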

Additional observations from a re-analysis of the deposited data

How the results depend on the processing

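No paired analysis was possible because the libraries of a group are not separate in the table, and leaving out a library was not possible for the same reason. The number of pseudogenes higher by 1 or more, 20 as reported, was 12 on counts divided by the column total and 7 among the 26 that overlap no other gene. The number lower by 1 or more was 5 as reported. It was 9 with a pseudocount of 0.1, 11 with no filter on the mean FPKM and 2 with 10 or more counts. It was 0 with a mean FPKM of at least 5, among those that overlap no other gene and with 30 or more counts. It was also 0 on counts divided by the total, which holds only with the pseudocount added there. The median log2 ratio, 0.36 as reported, was -0.00387 over the 213 with no filter, 0.81 at a mean FPKM of at least 5, 0.68 without overlapping genes and 0.76 with 30 or more counts. The shift in the unfiltered set comes with 131 more pseudogenes of low level. Pseudogenes with a shared window, 38 of 81 at 100 nt, numbered 59 at 50 nt and 17 at 200 nt. Those that overlap another gene, 56 on either strand, numbered 29 on the same strand. The median of the ribosomal protein genes, 0.69, was 0.52 on counts divided by the total. Removing a trend in GC content and length, the limit of 30 counts, the closest gene in place of the parent, and counts divided by the total for the ribosomal protein genes and other pseudogenes were chosen after seeing the data. Of 140 values of named single pseudogenes under 4 alternatives, 115 moved from the reported value by less than the reach of the counting interval, 25 moved by more and none that was past 1 changed sign. RPS2P46 and RPL23AP7 went from past 1 to under 1 on counts divided by the total, and also without the trend. RPL23AP1 went under 1 in size only on counts divided by the total, where the pseudocount was added. Its ratio of count shares without a pseudocount was -2.40.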
